A study of Bos taurus with 15 samples.

Results

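LGALS7B, a galectin gene, and B3GALT1, a galactosyltransferase gene, are 2 of the 31999 rows of a count table from bovine morulae, the stage at which the cleaving embryo forms a compact ball of cells. Both were chosen by their measured counts, as higher in the libraries titled TII than in those titled ICSI, so that difference is described here and not tested. The table held 15 RNA-seq libraries in 3 groups of 5. TII libraries came from haploid androgenetic embryos, whose only genome is that of the sperm. CHX libraries came from haploid parthenogenetic embryos, whose only genome is that of the oocyte. ICSI libraries came from diploid embryos made by injecting a sperm into the oocyte. The labels gave neither the breed, the bull, the embryos per library nor how each kind of embryo was produced. Effects of the procedure and of the parental genome therefore cannot be told apart. In the comparisons with ICSI neither can those of ploidy, which the haploid groups share.

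Galectins are lectins that bind sugar chains ending in galactose linked in the beta position, on the cell surface and inside the cell. LGALS7B encodes galectin-7, which in human tissue is known mainly from stratified epithelia such as the epidermis. B3GALT1 encodes an enzyme of the Golgi that takes galactose from UDP-galactose and adds it, in a beta-1,3 link, to N-acetylglucosamine at the end of a sugar chain. The lectin thus reads a sugar of the kind that the enzyme adds, although whether galectin-7 binds the chains made by B3GALT1 in these embryos was not measured.

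Both genes passed the filter on low counts, which kept 16375 rows. Total counts per library (M, 1000000 counts) were 21.6 M to 28.5 M in androgenetic, 25.1 M to 29.0 M in parthenogenetic and, in ICSI libraries, 20.0 M to 26.9 M. Androgenetic libraries had 13564 to 18633 rows with at least 1 count, against 16154 to 18899 in parthenogenetic libraries, and ICSI libraries had 15286 to 19950. Levels are given as CPM, the counts per 1000000 counts of the library, after TMM scaling for differences in composition between libraries. The smallest count of either gene in any library was 80, for which counting error alone gives an exact 95% Poisson interval of 63.4 to 99.6. Of 47 marker genes for inner cell mass, trophectoderm, oocyte, cumulus cells, sperm and keratinocytes, only SOX2, an inner cell mass factor, had a row under its symbol. SOX2 ranged over 0.163 to 6.53 CPM in androgenetic libraries, 1.40 to 8.28 CPM in parthenogenetic libraries and 1.08 to 3.62 CPM in ICSI libraries. The markers of the other cell types were not analysed here, so their part in any result was not tested.

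LGALS7B was higher in androgenetic morulae than in both other groups. Its level was 184, 26.5, 86.0, 122 and 27.4 CPM in androgenetic replicates 1, 2, 4, 5 and 6. It was 5.08, 7.80, 8.50, 21.4 and 22.0 CPM in parthenogenetic replicates 1, 2, 3, 5 and 6, and 6.42, 10.9, 16.6, 26.3 and 8.56 CPM in ICSI replicates 1 to 5. Androgenetic replicates 1, 4 and 5 stood well above every other library, while androgenetic replicates 2 and 6 lay just above the highest ICSI library, replicate 4. The groups thus did not overlap on this scale, but by a margin of 26.5 against 26.3 CPM. On total counts alone, without the TMM factors, only 3 of 5 androgenetic libraries were above the highest ICSI library, since androgenetic replicates 2 and 6 had 19.3 and 17.8 CPM against 31.3 CPM in ICSI replicate 4. TMM factors ranged over 0.649 to 1.023 in androgenetic libraries, 0.776 to 1.21 in parthenogenetic libraries and 0.938 to 1.375 in ICSI libraries, and a factor below 1 raises the CPM of its library. Every androgenetic library was above every ICSI library in 3.05% of all tested rows.

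LGALS7B averaged 89.3 ± 67.0 CPM in androgenetic libraries, 13.0 ± 8.09 CPM in parthenogenetic libraries and 13.8 ± 7.97 CPM in ICSI libraries (SD, n = 5 each). In edgeR's fit of all 15 libraries this was a log2 fold change of 2.70 ± 0.62 (SE) for androgenetic minus ICSI, or 6.49-fold, with a 95% interval of 2.62-fold to 16.1-fold. The interval takes no account of the choice of the gene by this comparison, and is no test. At an adjusted p under 0.05, 2.82% of tested rows were called in that comparison, 1.76% higher and 1.06% lower; nothing is read from this for either gene, since the comparison chose them. In bulk libraries, more cells with the transcript and more transcript per cell cannot be told apart.

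B3GALT1 was also higher in androgenetic morulae as a mean, but not in every library. Its level was 33.3, 55.4, 3.12, 117 and 9.05 CPM in androgenetic replicates 1, 2, 4, 5 and 6. It was 3.56, 3.09, 6.10, 4.75 and 11.3 CPM in parthenogenetic replicates 1, 2, 3, 5 and 6, and 5.27, 3.35, 8.73, 4.03 and 4.12 CPM in ICSI replicates 1 to 5. Androgenetic replicates 1, 2 and 5 were above every parthenogenetic and ICSI library. Androgenetic replicate 4 was below all 5 ICSI libraries, and androgenetic replicate 6 lay within the range of the parthenogenetic libraries, so the groups overlapped.

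B3GALT1 averaged 43.5 ± 45.9 CPM in androgenetic libraries, 5.76 ± 3.31 CPM in parthenogenetic libraries and 5.10 ± 2.14 CPM in ICSI libraries (SD, n = 5 each), so that in androgenetic libraries the SD exceeded the mean. Androgenetic replicate 5 alone held 53.7% of the summed CPM of its group, where the highest library held 41.3% for LGALS7B. The fitted log2 fold change for androgenetic minus ICSI was 3.09 ± 0.76 (SE), or 8.52-fold, with a 95% interval of 2.80-fold to 25.9-fold. Without androgenetic replicate 5 the log2 fold change was 2.30. Here too the interval takes no account of the choice of the gene, and is no test.

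**Figure D1:**
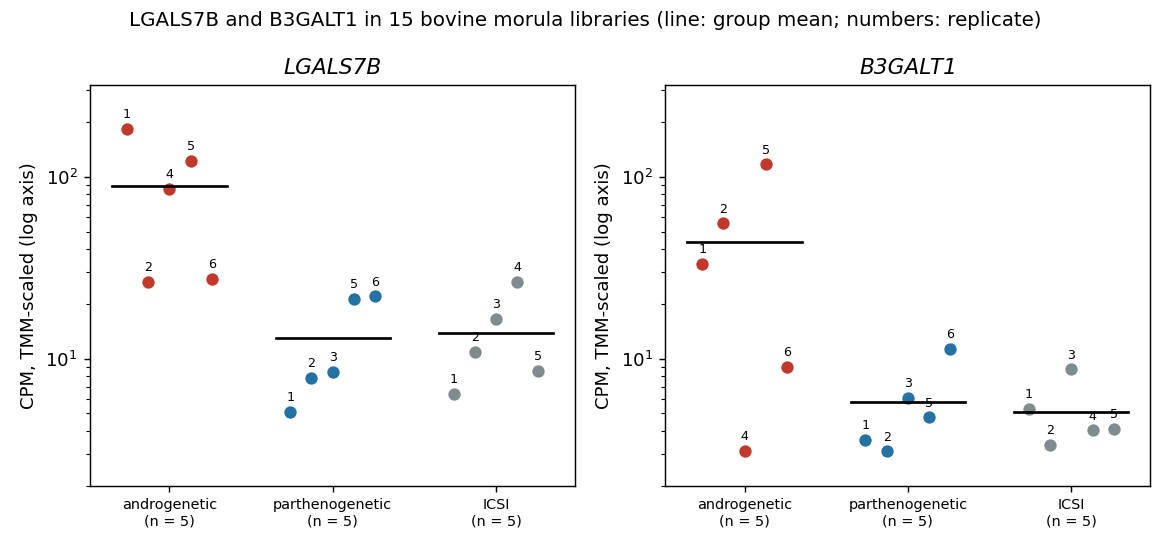
TMM-scaled CPM (log axis) of LGALS7B (left) and B3GALT1 (right) in each library, with the replicate number above each point and a line at the mean of each group of 5. LGALS7B is high in androgenetic replicates 1, 4 and 5 (86.0 to 184 CPM) and B3GALT1 in androgenetic replicates 1, 2 and 5 (33.3 to 117 CPM), while B3GALT1 in androgenetic replicate 4 (3.12 CPM) lies below all ICSI libraries.

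The androgenetic libraries high in one gene were not all high in the other. Replicates 1 and 5 were high in both genes. Replicate 4 had 86.0 CPM of LGALS7B and 3.12 CPM of B3GALT1, and replicate 2 had 55.4 CPM of B3GALT1 and 26.5 CPM of LGALS7B, the lowest of its group. Replicate 6, in which the fewest rows were detected of all libraries, was near the bottom of its group for both. Over all 15 libraries the Spearman correlation of the log2 levels of both genes was 0.529, a description that carries the group difference for which both were chosen.

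**Figure D2:**
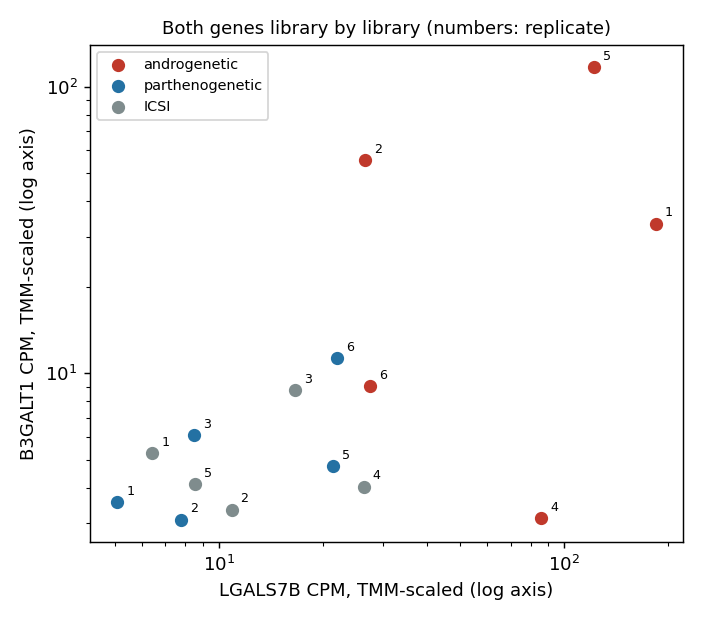
LGALS7B (horizontal) and B3GALT1 (vertical) in TMM-scaled CPM on log axes, 1 point per library, coloured by group and numbered by replicate. Androgenetic replicates 1 and 5 are high in both genes, replicate 4 in LGALS7B alone (86.0 against 3.12 CPM) and replicate 2 mainly in B3GALT1 (55.4 CPM).

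The spread among androgenetic libraries was wide for the whole transcriptome. The SD of log2 CPM of LGALS7B was 1.27 in androgenetic libraries, 0.93 in parthenogenetic libraries and 0.80 in ICSI libraries, beside medians of 1.19 (androgenetic), 0.72 (parthenogenetic) and 0.60 (ICSI) over the 8976 tested rows with a mean of at least 5 CPM. That of B3GALT1 was 2.08 in androgenetic libraries, 0.73 in parthenogenetic libraries and 0.53 in ICSI libraries. In androgenetic libraries 74.8% of those rows had a smaller SD than B3GALT1 and 53.5% a smaller SD than LGALS7B.

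Between the haploid groups, LGALS7B rose in androgenetic against parthenogenetic morulae and B3GALT1 did not pass. For LGALS7B the log2 fold change was 2.79 ± 0.63 (SE), or 6.89-fold, and it passed in edgeR's quasi-likelihood test (adjusted p = 0.0354), with all 5 androgenetic libraries above all 5 parthenogenetic libraries at 26.5 CPM or more against 22.0 CPM or less. On total counts alone, 3 of 5 androgenetic libraries were above the highest parthenogenetic library (24.0 CPM). For B3GALT1 the log2 fold change was 2.92 ± 0.76, or 7.55-fold, with 3 of 5 androgenetic libraries above all parthenogenetic libraries, and it missed the threshold of 0.05 (edgeR adjusted p = 0.0554). In this comparison 1.75% of tested rows were called, 0.916% higher and 0.837% lower, and in 1.78% every androgenetic library was above every parthenogenetic library. These values use the androgenetic libraries on which both genes were chosen and are no independent support for the difference.

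These calls lay close to the threshold and turned with single libraries. In edgeR's test LGALS7B lost its call without androgenetic replicate 1 (log2 fold change 2.33, adjusted p = 0.0777) or 5 (2.64, 0.0651) and without parthenogenetic replicate 1 (2.57, 0.10), 2 (2.64, 0.0596), 3 (2.66, 0.0969) or 5 (3.03, 0.0841). It also lost it without ICSI replicate 2 (2.78, 0.0524) or 3 (2.78, 0.0518), which enter that comparison only through the steps shared by all libraries (filter, scaling and spread). B3GALT1 passed in edgeR's test without androgenetic replicate 4 (3.21, adjusted p = 0.0177) or 6 (3.27, 0.0367), or without parthenogenetic replicate 6 (3.30, 0.0298). Without androgenetic replicate 5 its log2 fold change was 2.12 (edgeR adjusted p = 0.142). Calls over all rows also turned with single libraries, from 287 in the main fit. They were 87 and 99 without androgenetic replicate 1 or 5, and 137 and 150 without ICSI replicate 2 or 3. Without parthenogenetic replicate 1, 2, 3 or 5 they were 14, 266, 20 and 26. Where B3GALT1 passed they were 738, 375 and 903, in the order given.

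Parthenogenetic and ICSI morulae were not distinguishable in either gene at this spread. The log2 fold change of LGALS7B for parthenogenetic minus ICSI was -0.09 ± 0.59 (SE), with a 95% interval of 0.401-fold to 2.21-fold (edgeR adjusted p = 1). That of B3GALT1 was 0.17 ± 0.71, with an interval of 0.403-fold to 3.16-fold (edgeR adjusted p = 1). Differences of up to about those bounds remain possible. The libraries of these groups overlapped in both genes. In this comparison 0.0733% of tested rows were called, all of them lower (0% higher), and in 0.379% every parthenogenetic library was above every ICSI library. The order of parthenogenetic and ICSI morulae was thus not resolved for either gene. The comparison shares its ICSI libraries with the choice of the genes.

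**Figure D3:**
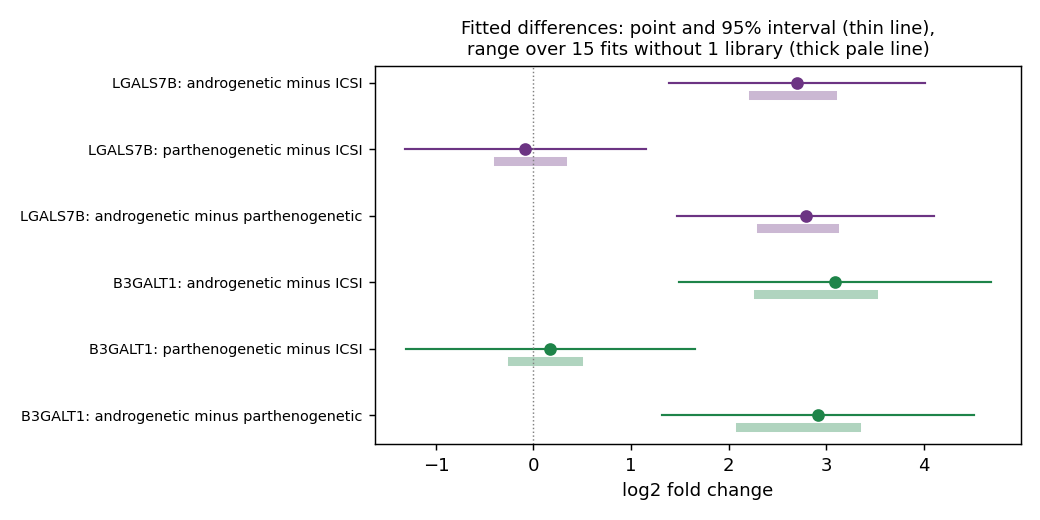
Fitted log2 fold changes of LGALS7B and B3GALT1 in the 3 comparisons (horizontal axis), as points with 95% intervals (thin lines) and the range over the 15 fits that each leave out 1 library (thick pale bars). The differences that involve androgenetic libraries lie between 2.70 and 3.09, and those of parthenogenetic minus ICSI are -0.09 and 0.17. The intervals take no account of the choice of both genes as higher for androgenetic minus ICSI.

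The LGALS7B row may not stand for a single gene. RefSeq's annotation of ARS-UCD2.0 places LGALS7, a second galectin-7 gene, on one side of LGALS7B with a pseudogene between them, and LGALS4, another galectin gene, on the other side. Neither LGALS7 nor LGALS4 has a row under its symbol. A row without a name, ENSBTAG00000050377, followed LGALS7B closely across the libraries, at somewhat lower counts. It had 4073, 394, 2221, 1992 and 484 counts in androgenetic replicates 1, 2, 4, 5 and 6, where LGALS7B had 4202, 430, 2286, 2061 and 505.

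In all 15 libraries ENSBTAG00000050377 was the lower of this pair, by 15 to 129 counts, and it held 91.6% to 97.2% of the LGALS7B count in androgenetic libraries, 80.7% to 97.0% in parthenogenetic libraries and 76.6% to 95% in ICSI libraries. The Spearman correlation of its log2 level with LGALS7B was 0.993 over 15 libraries, the highest of 8975 rows compared. Its log2 fold change was 2.82 ± 0.66 (SE) for androgenetic minus ICSI and 2.86 ± 0.66 for androgenetic minus parthenogenetic, next to 2.70 and 2.79 for LGALS7B. Whether this is the same gene under an Ensembl identifier, an overlapping gene or a near-identical copy was not tested. Both rows are therefore counted here as 1 measurement, and LGALS7B is uncertain as a single gene. No row, ENSBTAG00000050377 included, came within 2% or 3 counts of LGALS7B in every library, and none did for B3GALT1.

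**Figure D4:**
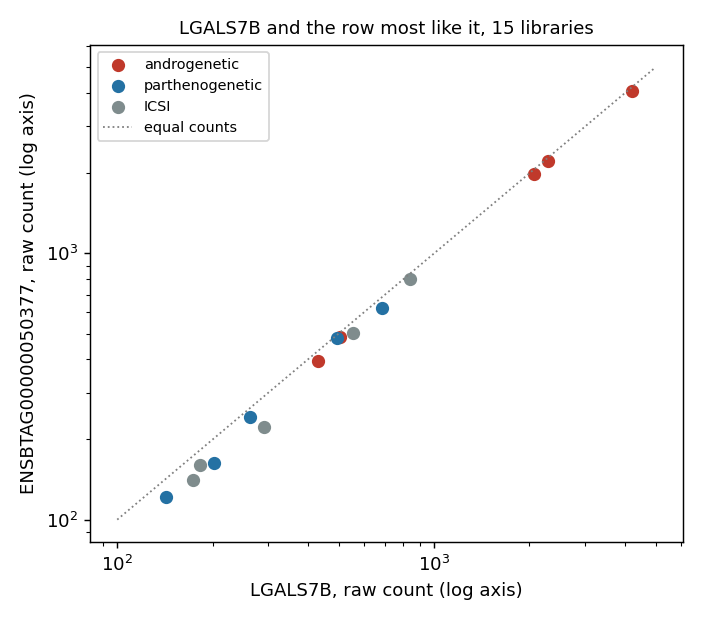
Raw counts of LGALS7B (horizontal) and of ENSBTAG00000050377 (vertical) on log axes, 1 point per library, coloured by group, with a dotted line at equal counts. All 15 points lie just below the line, from 143 and 122 counts up to 4202 and 4073 counts.

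Of the 10 genes that RefSeq places nearest to B3GALT1, 3 were tested, all on the same side of it: the long non-coding RNA genes LOC112442559 and LOC100847850, and STK39, a kinase gene. LOC100847850 had 9.17, 10.2, 15.5, 46.4 and 49.5 CPM in androgenetic replicates 1, 2, 4, 5 and 6, against 1.96 to 10.6 CPM in parthenogenetic libraries. In ICSI libraries it had 1.63 to 20.5 CPM, with ICSI replicate 5 the highest. Its log2 fold changes, 1.96 ± 0.78 (SE) for androgenetic minus ICSI and 2.39 ± 0.79 for androgenetic minus parthenogenetic, did not pass in edgeR's test (adjusted p = 0.164 and 0.111). Without ICSI replicate 5 the first was 3.05 and passed (edgeR adjusted p = 0.0432), in a fit that called 576 of all 17185 tested rows. Of the 15 fits that each leave out 1 library, the first passed in only this 1.

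LOC112442559 had 3.47 to 43.2 CPM in androgenetic libraries, 0.267 to 8.82 CPM in parthenogenetic libraries and 2.23 to 16.4 CPM in ICSI libraries, and did not pass either (edgeR adjusted p = 0.408 for androgenetic minus ICSI and 0.254 for androgenetic minus parthenogenetic). The androgenetic libraries highest in these neighbours, replicates 5 and 6 for LOC100847850 and 2 and 4 for LOC112442559, each included 1 library high in B3GALT1 (replicate 5 and replicate 2) and 1 that was low (replicate 6 and replicate 4). STK39 had 3.60, 0.739, 4.40, 0.0594 and 0 CPM in androgenetic replicates 1, 2, 4, 5 and 6, against 0 to 1.39 CPM in parthenogenetic libraries and 0.594 to 2.64 CPM in ICSI libraries. It was thus at 1 count in androgenetic replicate 5, where B3GALT1 was highest, and its log2 fold change for androgenetic minus ICSI was 0.38 ± 1.43 (SE, edgeR adjusted p = 0.913). The neighbours were looked up after the values of B3GALT1 were known.

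Few other genes of galactose metabolism could be followed by name, since 27607 of the 31999 rows carried only an Ensembl identifier, 3615 a LOC number and 777 a symbol. Of 86 genes in 7 lists (galectins, beta-1,3-galactosyltransferases, other galactosyltransferases, N-acetylglucosaminyltransferases, sialyl- and fucosyltransferases that cap galactose, galactose supply, and galactosidases), 5 could be matched to a row by symbol or LOC number and 4 were tested, LGALS7B and B3GALT1 among them. Of 19 galectins only LGALS7B was matched, and rows of the others under Ensembl identifiers were not analysed here. The others were B3GALNT1 and B4GALT7, and GLB1L2, a galactosidase family gene at 0 to 99 counts that was below the filter. GALNT4, GALNTL6 and ST6GALNAC3, which act on O-linked sugar chains, were added after the row names were seen. In edgeR's test 0 of these 5 further rows passed in either direction in any of the 3 comparisons. Of all tested rows, 2.82% passed for androgenetic minus ICSI, 0.0733% for parthenogenetic minus ICSI and 1.75% for androgenetic minus parthenogenetic, so 0 of 5 says little. The median log2 fold change of the 5 rows was -0.16 for androgenetic minus ICSI, beside -0.01 over all tested rows. At an unadjusted p under 0.05 in edgeR, B4GALT7 was lower in androgenetic than in both other groups, and ST6GALNAC3 was lower in parthenogenetic than in both other groups. At that cutoff 3231, 304 and 3056 of all 16375 tested rows passed in the 3 comparisons, in the order given above. DESeq2 called B4GALT7 lower in androgenetic than in both other groups and ST6GALNAC3 higher in androgenetic than in parthenogenetic libraries, and limma voom called 0 of the 5 rows. Of all 16375 tested rows DESeq2 called 1987, 35 and 1665, and limma voom 876, 11 and 703, in the same order. These few calls are therefore no result about glycan genes as a set.

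B4GALT7, which adds the first galactose of the chain that links glycosaminoglycans to their protein, was almost absent from androgenetic libraries. It had 0, 1, 0, 0 and 2 counts in androgenetic replicates 1, 2, 4, 5 and 6. It had 105, 56, 83, 18 and 0 counts in parthenogenetic replicates 1, 2, 3, 5 and 6, and 54, 26, 99, 67 and 0 counts in ICSI replicates 1 to 5. The group sums were 3 counts in androgenetic libraries, 262 in parthenogenetic libraries and 246 in ICSI libraries. The libraries at 0 outside the androgenetic group, parthenogenetic replicate 6 and ICSI replicate 5, were those with the fewest rows detected in their groups, at 16154 and 15286. Androgenetic replicates 1, 2, 4, 5 and 6 had 17468, 16665, 18633, 16839 and 13564 rows detected. The libraries with 18 or more counts of B4GALT7 had 18111 to 19950 rows detected. Androgenetic replicate 4 lay within that range, and all other androgenetic libraries lay below it. With rows detected as a covariate, B4GALT7 did not pass (edgeR adjusted p = 0.439 against ICSI and 0.324 against parthenogenetic morulae). That fit called 0 and 154 of all 16375 tested rows in these comparisons. Detection as a cause of this difference was not tested.

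The difference in B4GALT7 missed the threshold against ICSI (edgeR adjusted p = 0.0811) and against parthenogenetic morulae (0.0883). Over 24 alternative fits it passed in only 3 in each comparison, DESeq2 among them. With a replicate block it did not pass (edgeR adjusted p = 0.345 and 0.225), where 0 and 88 of all 16375 rows were called. In edgeR it passed without the library with fewest rows detected in each group (adjusted p = 0.00961 and 0.00907). It also passed without parthenogenetic replicate 6 alone (edgeR adjusted p = 0.0468 and 0.0390). Both fits leave out parthenogenetic replicate 6, at 0 counts of B4GALT7. The first also leaves out ICSI replicate 5, at 0 counts, and androgenetic replicate 6, at 2 counts. Of all tested rows the first fit called 1630 and 1874 of 16871, and the other 909 and 903 of 17112. In the main fit 461 and 287 of 16375 were called. A count of 0 allows up to 0.132, 0.113 and 0.178 CPM in androgenetic replicates 1, 4 and 5, taking 3 counts as the limit, which covers counting error only. B4GALT7 carries too few counts in androgenetic libraries for a fold change to be given.

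B3GALNT1, of the same enzyme family as B3GALT1, which adds N-acetylgalactosamine to a glycolipid, averaged 9.96 ± 10.6 CPM in androgenetic libraries, 9.47 ± 7.52 CPM in parthenogenetic libraries and 11.4 ± 4.96 CPM in ICSI libraries (SD, n = 5 each). GALNTL6, of the family of enzymes that start mucin-type chains, averaged 8.17 ± 2.99 CPM in androgenetic libraries, 7.21 ± 6.03 CPM in parthenogenetic libraries and 6.35 ± 2.24 CPM in ICSI libraries. GALNT4, which also starts such chains, had at most 2.82 CPM in androgenetic libraries, 5.16 CPM in parthenogenetic libraries and 0.754 CPM in ICSI libraries. ST6GALNAC3, a sialyltransferase, had at most 2.91 CPM in androgenetic libraries, 0.227 CPM in parthenogenetic libraries and 2.71 CPM in ICSI libraries.

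**Figure D5:**
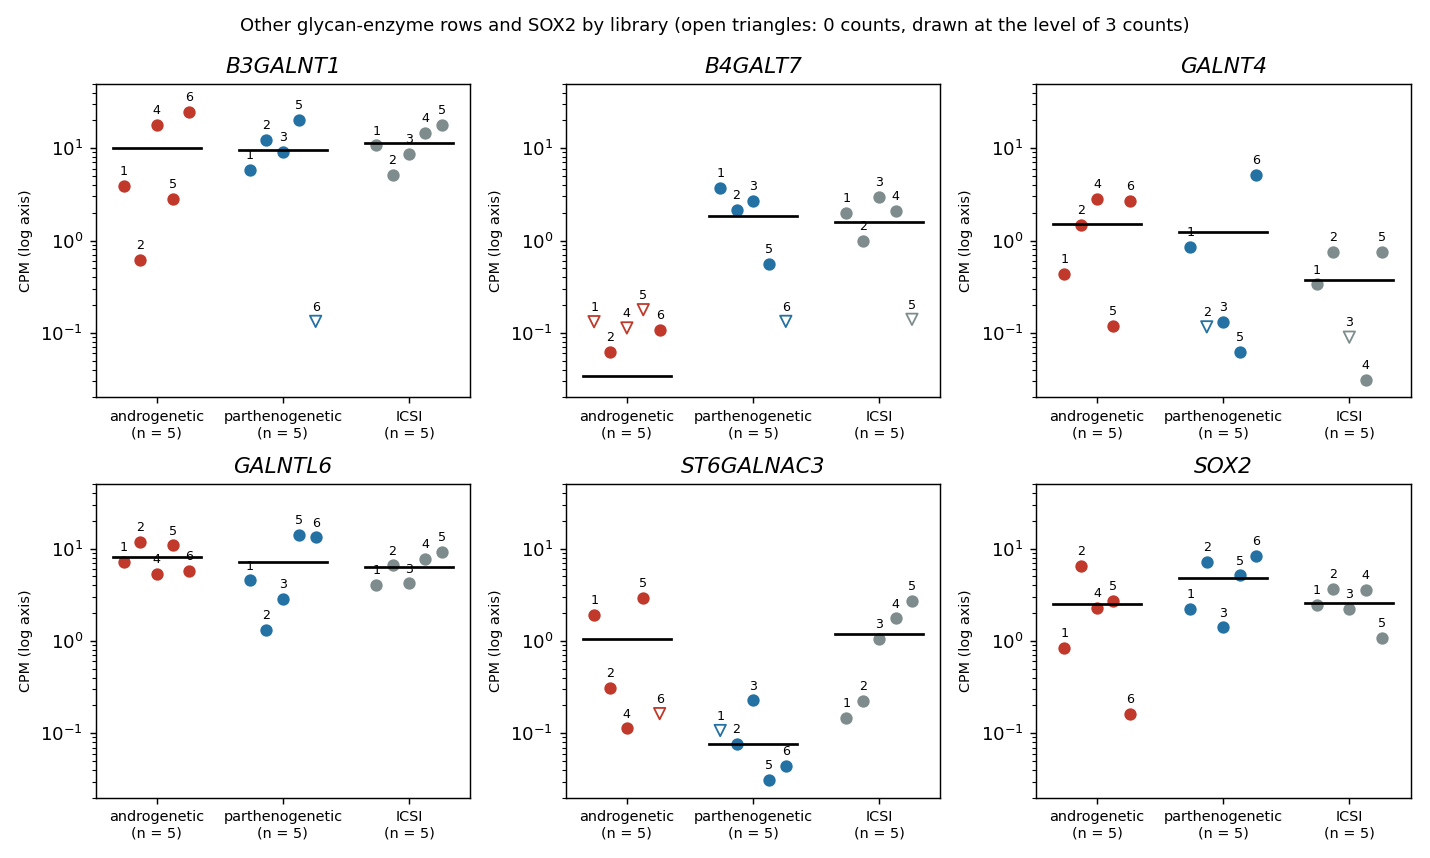
CPM (log axis) of 5 further glycan-enzyme rows and of SOX2 in each library, by group, with the replicate number above each point and a line at the group mean. Open triangles mark libraries with 0 counts, drawn at the level of 3 counts. B4GALT7 has at most 2 counts in each androgenetic library, against 18 to 105 counts in 4 of 5 parthenogenetic and 26 to 99 counts in 4 of 5 ICSI libraries.

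The named rows most like each gene over the 15 libraries differed, apart from 1. For LGALS7B they were MARCH1 (Spearman correlation 0.839), TMEM178B (0.757), CNTNAP2 (0.754), NMB (0.714) and PGPEP1L (0.711), of 291 rows with a symbol. For B3GALT1 they were IER5 (0.729), COL25A1 (0.718), SYCE1L (0.689), PHF14 (0.675) and MARCH1 (0.661). Among all 8975 rows compared, most of them unnamed, these rows ranked only 18 to 180 for LGALS7B and 40 to 124 for B3GALT1. MARCH1, a membrane-bound ubiquitin ligase gene, had 39.3, 16.9, 12.6, 33.8 and 13.6 CPM in androgenetic replicates 1, 2, 4, 5 and 6, and was high in the same replicates, 1 and 5, that were high in both galactose genes. It had 0.889 to 5.07 CPM in parthenogenetic libraries and 0.891 to 11.5 CPM in ICSI libraries. The row most like B3GALT1 under any name, ENSBTAG00000054879, reached 0.868. These correlations carry the group difference and differences in composition that the libraries share, and are descriptions only.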

How the data were processed

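RNA-seq libraries of 15 bovine morula samples were analysed from 1 deposited table of raw counts per gene and library, whose whole numbers and unequal totals per library show no normalization. A SMART-Seq HT kit, which makes full-length cDNA from polyadenylated RNA, and a Nextera XT kit were used, per the labels' protocols. The submitters' processing notes name featureCounts, STAR, cutadapt and Trim Galore. Tool versions, build, annotation and counting strand are not given in the sources used here, so reads of near-identical, overlapping or antisense genes cannot be told apart. The sources do not say whether replicates were separate embryos, and the spread behind each p-value may be technical. The members and gene lists were chosen with earlier results of these data known. Named genes were, by rule, both members, every list gene with a row, and for each member the 5 symbol rows and 2 rows of any name (of the unnamed ones, 1 each is printed) with the highest Spearman correlation at a mean of at least 5 CPM. ENSBTAG00000050377 is one of these, and the 3 tested neighbours of B3GALT1 were added outside the rule.

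Counts were fitted with edgeR 4.0.16 in R 4.3.3 (TMM factors, filterByExpr, quasi-likelihood test, 1 coefficient per group, all 15 libraries), with Benjamini-Hochberg adjustment over 16375 rows and a threshold of 0.05. CPM uses TMM-scaled library sizes, and log2 CPM a prior count of 2. Names and gene order came from RefSeq (ARS-UCD2.0), matched by symbol or LOC number.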

Additional observations from a re-analysis of the deposited data

How the results depend on the processing

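For androgenetic minus ICSI, the log2 fold change of LGALS7B lay between 2.23 and 3.06 and that of B3GALT1 between 2.06 (limma voom) and 3.48 over 25 alternatives, all positive. That comparison chose both genes, so its sign in refits of the same libraries is no support for the difference. For androgenetic minus parthenogenetic, LGALS7B kept its direction (2.33 to 3.08 without 1 library each) but lost its call in a fit of those groups alone (2.88, edgeR adjusted p = 0.0750) and with a replicate block (2.60, 0.106). Its adjusted p ranged from 0.000151 to 0.106 over all alternatives, and without the library with fewest rows detected in each group it was 3.41. B3GALT1 lay between 2.12 and 3.30 without 1 library each and passed with DESeq2 (3.06) and without the libraries with fewest rows detected (3.72), with 2.01 in limma voom. Its adjusted p ranged from 0.000848 to 0.198.

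The small differences of parthenogenetic minus ICSI changed sign and never passed. LGALS7B had 0.17 with rows detected as a covariate and -0.36 to 0.29 without 1 library each. B3GALT1 had -0.31 with a replicate block, -0.31 without the libraries with fewest rows detected, -0.13 on total counts alone and -0.22 to 0.46 without 1 library each. Deviations of same-numbered libraries correlated weakly, at -0.04 to 0.09 in 12 pairs. Their median was 0.04, against -0.01 for the other pairs of libraries from different groups. Low correlations cannot exclude that same-numbered libraries were made together, so no pairing was assumed in the main fit.

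The scaling on total counts alone was chosen after seeing the data. It moved the median of all rows to -0.54 for androgenetic minus ICSI and -0.34 for androgenetic minus parthenogenetic. LGALS7B was then 2.23 and 2.60, and B3GALT1 2.46 and 2.59. It also turned the balance of calls: 127 rows were higher and 455 lower for androgenetic minus ICSI where TMM gave 288 and 173, and 129 higher and 239 lower for androgenetic minus parthenogenetic where TMM gave 150 and 137. DESeq2 size factors moved those medians to 0.13 and 0.12, with 372 rows higher and 139 lower for androgenetic minus ICSI. The number of all rows called was unstable. For androgenetic minus ICSI it was 461, against 1987 with DESeq2, 876 with limma voom, 1630 without the libraries with fewest rows detected, and 0 in edgeR with the replicate block or with rows detected as a covariate (2523 and 3037 at an unadjusted p under 0.05). For parthenogenetic minus ICSI it was 12, against 35 with DESeq2, 3 with the block and 6 without those libraries. For androgenetic minus parthenogenetic it was 287, against 1665 with DESeq2, 703 with limma voom, 27 in a fit of those groups alone, 88 with the block, 154 with the covariate and 1874 without those libraries. Leaving out 1 library gave 0 to 1077, 3 to 14 and 14 to 903 calls in these comparisons. The cause was not tested.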

Other observations

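B3GALT1 and B3GALNT1, enzymes of the same family, were high in different androgenetic libraries. Replicates 1, 2 and 5, with 33.3, 55.4 and 117 CPM of B3GALT1, had 3.91, 0.616 and 2.85 CPM of B3GALNT1, all below the lowest ICSI library (5.09 CPM). Replicates 4 and 6, with 3.12 and 9.05 CPM of B3GALT1, had 17.7 and 24.8 CPM of B3GALNT1, close to or above the highest ICSI library (17.7 CPM). Outside the androgenetic group the libraries did not all follow this split. Parthenogenetic replicate 6, with the fewest rows detected in its group, had 11.3 CPM of B3GALT1 and 0 counts of B3GALNT1, but parthenogenetic replicate 3 had 6.10 and 9.09 CPM and ICSI replicate 3 had 8.73 and 8.67 CPM of these genes. This split was noticed in the values and was not tested.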
